A study of Mus musculus with 14 samples.

Results

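Pitx1, Pitx3, Msx1, Msx2, Alx1, Alx4, Barx1 and Barx2 are 8 homeobox genes of 4 families whose proteins bind DNA and shape the face, teeth, limbs, stomach, lens and midbrain. They were taken by name as a group of developmental regulators. For each gene, the H3K27me3 peaks overlapping the gene body with 5 kb on each side were collected. The 8 genes held 62 of the 23668 peaks that the authors listed, and each gene had between 5 and 11. H3K27me3 was measured by ChIP-seq in wild-type (WT) mouse primary hippocampal neurons, which the study prepared from embryos of CD1 mice in mixed-sex litters and which received lipid nanoparticles with either a negative control gapmer or a gapmer against the long noncoding RNA NeuID. A gapmer is a short antisense oligonucleotide that leads to cleavage of its target RNA. By their titles, 6 ChIP libraries belong to the control and 6 to the NeuID knockdown, with 1 input library per condition, and whether they came from separate litters is not given.

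H3K27me3 is the trimethylation of lysine 27 of histone H3. It is placed by Polycomb repressive complex 2 (PRC2), whose catalytic subunit is EZH2, and it marks genes held silent. Homeobox genes of other lineages are classic PRC2 targets in neurons and often lie under wide domains of the mark that start at CpG-rich promoters. Pitx1 specifies hindlimb and pituitary, Pitx3 is needed for midbrain dopamine neurons and the lens, Msx1 and Msx2 are repressors that act downstream of bone morphogenetic proteins, Alx1 and Alx4 act in facial and skull mesenchyme, Barx1 acts in the stomach wall and molar teeth, and Barx2 in muscle and in the control of cell adhesion genes.

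The values are the authors' group means, given as log2 normalized reads per library over a peak, and are also written here as plain normalized reads. No SD or n was read with them, the authors' own test was not used, and every difference below is a difference of 2 means whose spread between libraries is unknown. The overall mean had the weights of 6 control and 5 knockdown libraries, although the labels list 6 knockdown libraries. Depth is known only as reads per peak, with a median of 7.60 normalized reads over all listed peaks. The authors' scaling is not stated, and a change of the mark across the whole genome could not be judged. In a culture of many cells, fewer cells with the mark and less of the mark per cell cannot be told apart.

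To show the DNA behind the peaks, central stretches of 300 bases are printed for 3 peaks with wide gaps between the groups, all lower in the knockdown, together with the strongest peak lying wholly upstream of a gene, where both groups were close. All are from the GRCm38.p6 genome (the assembly of mm10), read 5′ to 3′ on the strand of the gene, with each CpG in capitals. None of the stretches overlaps an annotated exon of its gene.
Alx1, upstream, chr10:103033190-103033489, minus strand, 3.05 lower in the knockdown: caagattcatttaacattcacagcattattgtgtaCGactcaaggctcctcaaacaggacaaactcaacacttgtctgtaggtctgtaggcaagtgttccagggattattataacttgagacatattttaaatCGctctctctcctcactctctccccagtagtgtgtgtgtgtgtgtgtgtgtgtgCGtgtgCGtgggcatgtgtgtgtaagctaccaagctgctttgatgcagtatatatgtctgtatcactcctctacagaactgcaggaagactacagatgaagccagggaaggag
Msx2, intron, chr13:53470850-53471149, minus strand, 1.94 lower in the knockdown: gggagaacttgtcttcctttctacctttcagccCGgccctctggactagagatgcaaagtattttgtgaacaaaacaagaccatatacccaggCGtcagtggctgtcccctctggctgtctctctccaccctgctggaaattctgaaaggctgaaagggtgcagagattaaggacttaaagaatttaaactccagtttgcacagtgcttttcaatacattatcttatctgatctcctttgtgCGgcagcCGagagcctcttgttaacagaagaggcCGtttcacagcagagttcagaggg
Pitx3, intron, chr19:46147040-46147339, minus strand, 1.90 lower in the knockdown: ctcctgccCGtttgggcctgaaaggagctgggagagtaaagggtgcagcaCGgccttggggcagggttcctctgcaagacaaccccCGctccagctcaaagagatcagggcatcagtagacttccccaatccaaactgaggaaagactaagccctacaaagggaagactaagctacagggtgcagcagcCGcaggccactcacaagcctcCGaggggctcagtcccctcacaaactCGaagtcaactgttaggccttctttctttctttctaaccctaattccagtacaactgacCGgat
Msx1, upstream, chr5:37827274-37827573, minus strand, 0.14 higher in the knockdown: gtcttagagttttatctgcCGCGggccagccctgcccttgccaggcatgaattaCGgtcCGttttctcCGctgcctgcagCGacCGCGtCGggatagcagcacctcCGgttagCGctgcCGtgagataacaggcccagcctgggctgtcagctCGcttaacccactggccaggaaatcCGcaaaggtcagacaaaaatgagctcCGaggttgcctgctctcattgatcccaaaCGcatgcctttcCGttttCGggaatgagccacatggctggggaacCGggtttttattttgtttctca

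The 3 stretches with wide gaps held 4, 5 and 7 CpG in the order printed, and the Msx1 stretch held 19. RefSeq promoters were matched for 4 of the 8 genes. Those of Pitx3 and Msx1 are shown because H3K27me3 at both gene starts was lower in the knockdown means. Each run covers 240 bases and leaves out the last 10 before the RefSeq gene start, with CpG in capitals.
Pitx3 promoter, chr19:46148336-46148575, minus strand: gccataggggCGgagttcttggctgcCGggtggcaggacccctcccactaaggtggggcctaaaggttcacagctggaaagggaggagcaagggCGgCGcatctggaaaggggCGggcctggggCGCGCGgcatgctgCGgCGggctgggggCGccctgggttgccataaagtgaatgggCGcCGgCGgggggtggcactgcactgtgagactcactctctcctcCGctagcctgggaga
Msx1 promoter, chr5:37824596-37824835, minus strand: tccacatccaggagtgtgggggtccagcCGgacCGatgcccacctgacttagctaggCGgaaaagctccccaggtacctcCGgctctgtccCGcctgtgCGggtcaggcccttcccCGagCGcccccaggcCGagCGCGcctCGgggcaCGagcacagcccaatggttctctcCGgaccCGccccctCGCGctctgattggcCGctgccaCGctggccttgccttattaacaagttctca

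The Pitx3 run held 15 CpG and lay wholly inside the peak over the gene start. The Msx1 run held 19 CpG, and 134 of its bases lay in the peak over the gene start.

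Peaks of the 8 genes were wide and strong. Their median width was 905 bp against 426 bp over all listed peaks, and 27 of the 62 (43.5%) reached 1 kb against 9.72% of all peaks. The median of their overall log2 means was 4.18 (18.1 normalized reads), and no group was listed at 0 in any of them. Of the 62 peaks, 7 covered a gene start, 12 touched a coding exon, 14 lay wholly in introns, 18 lay upstream and 13 downstream. CpG was also denser: the median observed-over-expected CpG ratio was 0.42 against 0.22 over all peaks. This held only in part at matched strength: the 20 peaks with an overall mean of 5 or more had a ratio of 0.57 against 0.53 for all listed peaks of that strength, and the 15 peaks between 4 and 5 had 0.22 against 0.38.

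**Figure D1:**
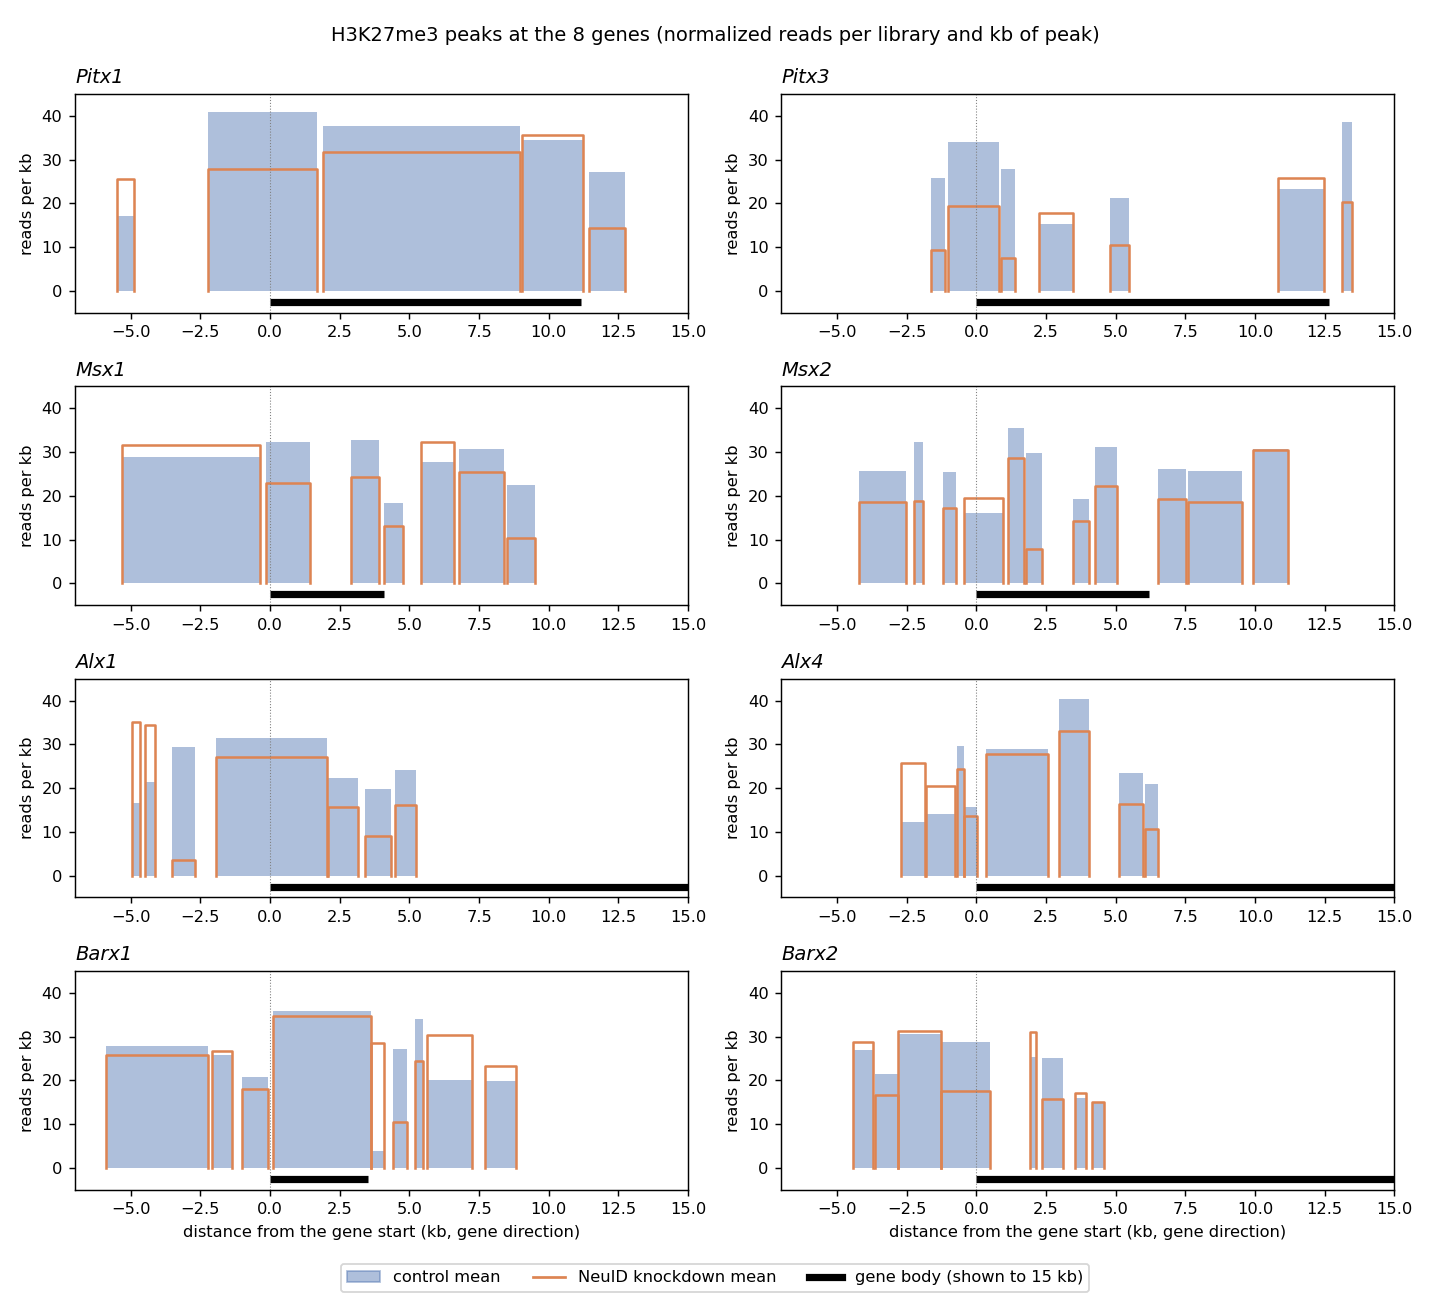
H3K27me3 peaks at the 8 genes, plotted as normalized reads per library and kb of peak (vertical axis) against the distance from the gene start in kb along the gene (horizontal axis). Blue areas are control means, orange outlines knockdown means and black bars gene bodies, shown to 15 kb. At Pitx1 and Barx1 the peaks cover most of the gene, whereas at Alx1, Alx4 and Barx2 they cluster around the start.

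The levels per kb of peak lay close together among the 8 genes. In the control means, Pitx1 had the highest level at 36.4 normalized reads per kb, followed by Msx1 at 28.6, Alx1 at 27.03, Barx1 at 26.9, Msx2 at 26.1, Barx2 and Pitx3 at 25.9 each, and Alx4 at 24.5. Without values per library, the order of the genes, Pitx1 and Msx1 included, cannot be resolved. The genes differed more in how much of the window the peaks covered. Peaks covered 86.5% of the Barx1 window, 79.9% of the Msx1 window, 68.7% of the Pitx1 window and 65.4% of the Msx2 window, but 30.0% for Pitx3, 19.9% for Alx1, 14.7% for Alx4 and 8.47% for Barx2. Alx4 and Barx2 are the longest of the 8 genes, and their listed peaks lay at their 5′ ends.

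To compare the groups by gene, normalized reads were summed over the peaks of each gene. The sum was lower in the knockdown for 7 of the 8 genes and nearly equal for Barx1. Over all 62 peaks it came to 2258 reads for the control and 1938 for the knockdown, or 85.8% of the control, against 97.1% over all listed peaks. Among peaks with an overall mean of 5 or more, the knockdown had 88.6% of the control at the 8 genes and 92.9% over all listed peaks. The summed difference of the 62 peaks was -0.22, and it was -0.13 when each peak was centred on the median of all listed peaks of its strength. Pitx3 had 176 reads in the control and 124 in the knockdown, a summed difference of -0.51 on the log2 scale and the widest gap in these windows. Next were Alx1 (223 and 171 reads, -0.38), Msx2 (276 and 213 reads, -0.37) and Pitx1 (547 and 445 reads, -0.30). Barx2 had 170 and 144 reads (-0.24) and Msx1 342 and 315 reads (-0.12). Alx4 had 177 and 171 reads (-0.04) and Barx1 347 and 355 reads (0.03). The order depended on the peaks taken: without the flanks Barx2 (-0.48) and Msx1 (-0.47) lay below Pitx3 (-0.41), among peaks of at least 500 bp Alx1 (-0.51) did, and among peaks whose overall mean reached 4 Pitx3 stood at -0.25, above Pitx1, Msx2 and Alx1. The direction of Alx4 and Barx1 was not stable: Alx4 turned to 0.017 among peaks of at least 500 bp and to 0.041 when each peak was centred on all listed peaks of its strength, and Barx1 turned to -0.045 without the flanks.

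**Figure D2:**
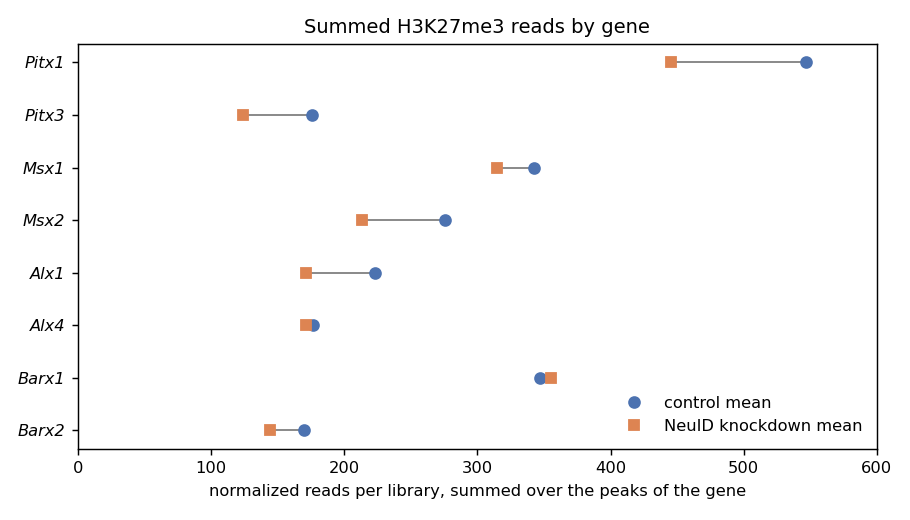
Normalized reads per library summed over the peaks of each gene (horizontal axis), with control means as circles and NeuID knockdown means as squares, for the 8 genes (vertical axis). The knockdown value lies to the left of the control value in every gene except Barx1, with the longest lines at Pitx1 (547 to 445) and Msx2 (276 to 213).

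These sums were set beside the windows of the other protein-coding genes with at least 5 listed peaks. Their summed difference had a median of -0.09 over 695 genes, with quartiles of -0.26 and 0.13, and 61.2% of them lay below 0. Pitx1, Pitx3, Msx2 and Alx1 lay below the lower quartile, and none of the 8 lay below the 5th percentile of -0.65. A lower value than that of Pitx3 was found in 8.78% of the other windows, than that of Alx1 in 13.8%, than that of Msx2 in 15.1% and than that of Pitx1 in 21.6%. Barx2, Msx1, Alx4 and Barx1 followed at 27.9%, 44.7%, 56.5% and 64.2%.

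**Figure D3:**
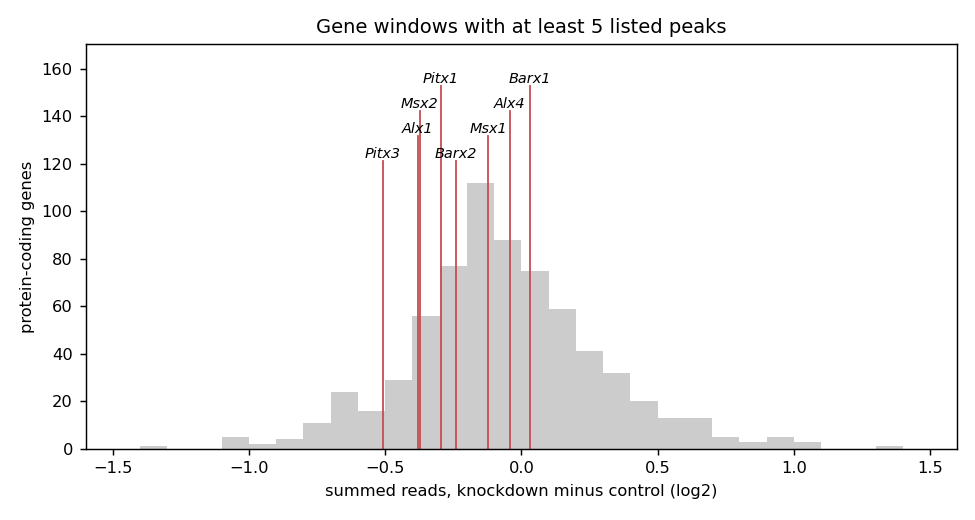
Histogram of the summed difference of H3K27me3 reads between the knockdown and control means (log2, horizontal axis) over 695 protein-coding gene windows with at least 5 listed peaks (number of genes on the vertical axis), with red lines for the 8 genes. The 8 genes lie between -0.51 and 0.03, inside the range of the other windows.

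Peak by peak, 42 of the 62 peaks (67.7%) were lower in the knockdown, against 50.8% of all listed peaks, and the median difference was -0.30 against -0.02. A limit of 2-fold between the group means was passed by 8 peaks with lower and 3 with higher values in the knockdown. That is 12.9% and 4.84% of the 62, while 20.6% and 20.4% of all listed peaks passed it in each direction. Both shares lay below the background. Strong peaks seldom passed the limit anywhere in the list, so the peaks were also read by strength.

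With an overall mean below 3 (under 8 normalized reads), 0 of the 8 peaks were lower and 2 higher by 2-fold, and the background was 23.4% and 26.9%. Between 3 and 4, 7 of the 19 peaks (36.8%) were lower and 1 (5.26%) was higher, and the background was 21.1% and 16.2%. Between 4 and 5, 1 of the 15 peaks was lower and 0 higher against 13.3% and 7.62%. At 5 and above, 0 of the 20 peaks passed the limit in either direction against 3.01% and 1.25%. The peaks lower by 2-fold were thus concentrated at 8 to 16 normalized reads. There 16 of 19 (84.2%) lay below 0, against 52.7% of all listed peaks of that strength, and the median difference was -0.67 against -0.06. The 20 strongest peaks had a median of -0.16 against -0.10, and 14 of 20 (70%) lay below 0 against 59.3%. In summed reads these strongest peaks carried more of the gap, with 1598 in the control and 1416 in the knockdown. The 19 peaks between 3 and 4 had 270 and 171.

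**Figure D4:**
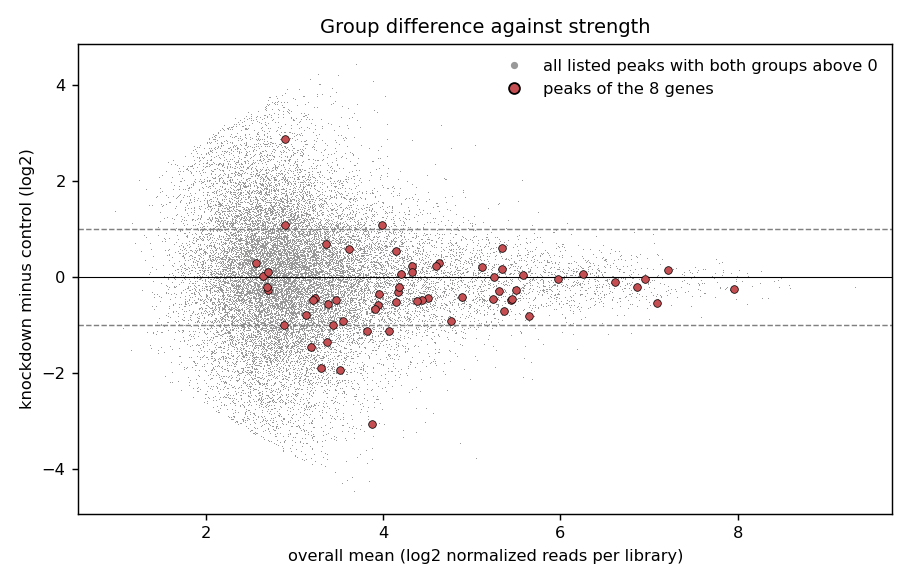
Difference between the knockdown and control means (log2, vertical axis) against the overall mean (log2 normalized reads per library, horizontal axis) for all listed peaks with both groups above 0 (grey) and the 62 peaks of the 8 genes (red). Dashed lines mark 2-fold, and the red points reach -3.05 and 2.86 at low strength and stay inside the lines at an overall mean of 5 and above.

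H3K27me3 over the gene starts was lower in 6 of the 7 genes with a peak there, where 52.6% of all listed peaks over a protein-coding gene start were lower. Summed over these 7 peaks, the control had 477 normalized reads and the knockdown 352, or 73.8% of the control. Over all 1114 listed peaks that cover a protein-coding gene start, the knockdown had 96.1% of the control. The median difference was -0.49 at the 7 starts and -0.04 at all starts. With an overall mean of 4 or more it was -0.52 for 6 starts and -0.05 for 728. None of the 7 start peaks passed 2-fold, and away from the starts the knockdown had 89.1% of the control.

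Neighbouring peaks of a gene did not always go in the same direction. Among 54 pairs of adjacent peaks within a gene, with a median gap of 226 bp, the difference had the same sign in 29 and opposite signs in 25. The same count was not made for neighbouring peaks over the whole list, so it is not read as a trait of these genes. Peaks of a gene share its window and are not replicates.

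In the Pitx family, Pitx1 showed lower means over its start and body, and Pitx3 around its start. Pitx1 (chr13:55825051-55836192, minus strand) had the strongest peak of all 8 genes. It spans 7074 bp over coding exons and the UTR (chr13:55827232-55834305) and had log2 means of 8.06 in the control and 7.81 in the knockdown, or 267 and 225 normalized reads. The peak over the start (chr13:55834517-55838425) had 160 and 109 reads, a difference of -0.55. These 2 peaks carried most of the difference at Pitx1, while another wide peak at the 3′ end of the gene was nearly level at 74.9 and 77.6 reads. A peak past the gene end (chr13:55823463-55824741) had 34.8 and 18.3 reads, just short of 2-fold, and the only peak wholly upstream, 4901 bp from the start, was higher in the knockdown at 10.02 and 15.03 reads. The antisense gene Gm47071 overlaps 4 of the 5 peaks, and Gm28760 also overlaps the peak over the start. The mark cannot be assigned to one of these genes.

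Pitx3 (chr19:46135685-46148326, minus strand) had 3 of the 8 peaks that were lower by 2-fold. The first, in an intron 872 bp from the start (chr19:46146925-46147454), had log2 means of 3.88 for the control and 1.98 for the knockdown, or 14.7 and 3.94 reads. The next lay 1135 bp upstream of the start (chr19:46149461-46149955), with 12.8 and 4.62 reads and a difference of -1.47. Between them the strong peak over the start (chr19:46147516-46149344) had 62.1 and 35.4 reads, a difference of -0.81, so that 3 adjacent peaks around the Pitx3 start were lower together. The third, in an intron 4805 bp from the start (chr19:46142863-46143521), had 14.0 and 6.96 reads. The peak over the coding exons at the 3′ end (chr19:46135837-46137501) went the other way, with 38.7 and 43.2 reads. A peak 466 bp past the gene end overlaps Elovl3, a fatty acid elongase gene, and had 14.9 and 7.88 reads. Without the first intronic peak the summed difference of Pitx3 was -0.43, and with only peaks of an overall mean of 4 or more it was -0.25.

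**Figure D5:**
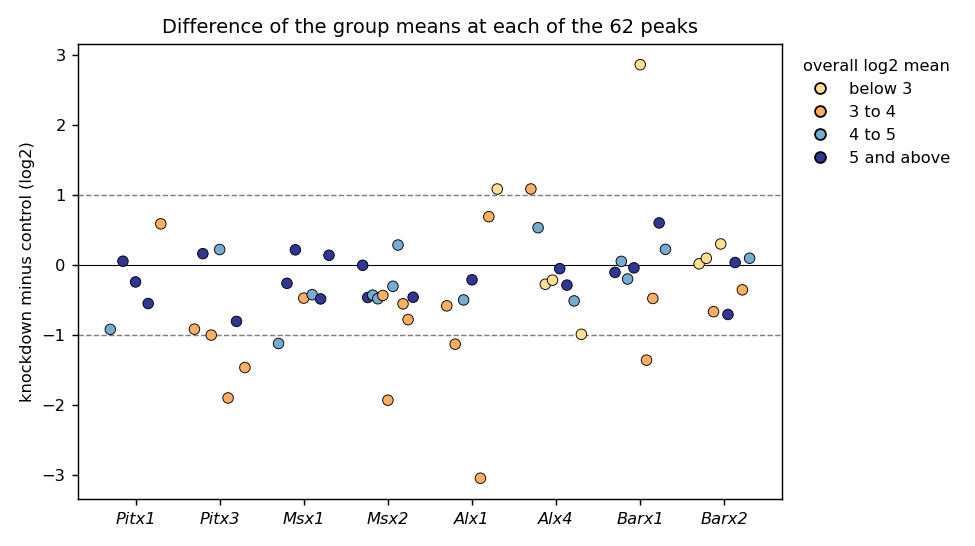
Difference between the knockdown and control means (log2, vertical axis) at each of the 62 peaks, grouped by gene (horizontal axis) in chromosome order and coloured by the overall log2 mean. Dashed lines mark 2-fold, with 8 peaks below them and 3 above, all with an overall mean under 5. Of the 11 Msx2 peaks, 10 lie below 0, where 50.8% of all listed peaks do.

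The Msx genes, whose products repress transcription in response to bone morphogenetic proteins, were lower at most peaks by a small amount. Of 18 Msx peaks, 15 (83.3%) lay below 0, with a median of -0.45. Over all listed peaks 50.8% lay below 0, with a median of -0.02. The share was 56.2% at an overall mean between 4 and 5 and 59.3% at 5 and above. At Msx1 (chr5:37820485-37824583, minus strand), the strongest peak spans 4938 bp from 372 bp upstream (chr5:37824955-37829892) and was nearly level, with 142 reads in the control and 156 in the knockdown. The peak over the start and first coding exon (chr5:37823168-37824729) had 50.3 and 35.8 reads, a difference of -0.49. One Msx1 peak passed 2-fold, 4409 bp past the gene end (chr5:37815079-37816076), with 22.3 and 10.2 reads. Since the strongest peak held 41.5% of the control reads, the summed difference of Msx1 was -0.34 without it and -0.12 with it.

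Msx2 (chr13:53466884-53473074, minus strand) had the most peaks, 11, and the difference was below 0 in 10 of them, against 50.8% of all listed peaks. Apart from 1 peak, those 10 differences lay between -0.78 and -0.0074. The exception was an intronic peak 1786 bp from the start (chr13:53470711-53471288), with log2 means of 4.11 in the control and 2.17 in the knockdown, or 17.2 and 4.496 reads. Its neighbour, over a non-coding exon 1150 bp from the start, had 19.8 and 16.0 reads. The peak over the Msx2 start (chr13:53472124-53473531) was the only start peak of the 8 genes with a higher knockdown mean, at 22.6 and 27.4 reads. The strongest Msx2 peak lay 1410 bp past the gene end (chr13:53463522-53465474) and had 50.3 and 36.3 reads. Without the intronic peak the summed difference of Msx2 was -0.31.

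In the Alx family, Alx1 and Alx4 differed in the knockdown means. Alx1 (chr10:102998707-103030215, minus strand) had its strongest peak over the start (chr10:103028160-103032140), with 125 reads in the control and 108 in the knockdown, a difference of -0.22. The lincRNA gene Gm17028 also lies under it. The widest gap among all 62 peaks was 2711 bp upstream of the Alx1 start (chr10:103032926-103033753). The log2 means there were 4.61 and 1.56, or 24.4 and 2.94 reads, 8.30-fold higher in the control. The next 2 peaks upstream went the other way: the one at 4126 bp had 8.03 and 12.9 reads, and the one at 4674 bp (chr10:103034889-103035186) had 4.95 and 10.5 reads, just past 2-fold. Inside the gene, an intronic peak 3389 bp from the start (chr10:103025877-103026826) had 18.8 and 8.56 reads. Alx1 therefore held the lowest value of the group and a peak past the limit in each direction, and without its lowest peak its summed difference was -0.24 instead of -0.38.

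Alx4 (chr2:93642384-93681339, plus strand) was nearly level in sum, with higher knockdown means at the 2 outer upstream peaks and lower ones from the innermost, 441 bp upstream, into the gene. The peak 1852 bp upstream (chr2:93639664-93640532) had 10.5 control and 22.3 knockdown reads, just past 2-fold, and the next, 768 bp upstream, had 14.7 and 21.2 reads. The peak over the start was narrow and weak (chr2:93641955-93642394), with 6.93 and 5.95 reads. The strongest peak, over a coding exon from 343 bp on (chr2:93642727-93644942), had 64.0 and 61.5 reads, a difference of -0.06. Further in, 3 intronic peaks were lower in the knockdown, and the gap widened from -0.29 at 2962 bp to -0.52 at 5122 bp and -0.99 at 6071 bp, while the control means of these peaks were 43.1, 20.6 and 9.55 reads.

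The Barx genes were the nearest to level, with a median difference of 0.01 over 17 peaks. No listed peak covered the Barx1 start (chr13:48662998-48666507, plus strand), and the nearest peaks began 99 bp inside and ended 88 bp upstream. The peak over the Barx1 gene body (chr13:48663097-48666605) had 126 control and 122 knockdown reads, and the wide upstream peak (chr13:48657092-48660755) had 102 and 94.3 reads. Both were thus level within 0.11 on the log2 scale. Peaks past the gene end diverged. A strong one 2113 bp past it (chr13:48668620-48670254) had 32.8 and 49.7 reads, a difference of 0.60 and the highest among the 20 peaks with an overall mean of 5 or more. The peak that starts 2 bp after the body peak (chr13:48666608-48667100) had log2 means of 0.95 in the control and 3.82 in the knockdown, or 1.94 and 14.1 reads, the highest difference of the 62 peaks at 2.86. This ratio rests on a control mean of under 2 reads. The next peak, 892 bp past the gene end (chr13:48667399-48667923), went the other way with 14.3 and 5.56 reads. Without its highest peak the summed difference of Barx1 was -0.02.

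Barx2 (chr9:31846044-31913462, minus strand) had no peak past 2-fold. The peak over its start and first coding exon (chr9:31912970-31914714) had 50.2 reads in the control and 30.7 in the knockdown, a difference of -0.71. The adjacent upstream peak, 1 bp away (chr9:31914716-31916262), was the strongest of the gene and was level at 47.2 and 48.3 reads. An intronic peak 2374 bp from the start had 18.03 and 11.3 reads and also lies under the antisense gene Gm31497. The other Barx2 peaks differed by at most 0.36 in either direction, so most of the gap at Barx2 lay in the start peak.

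The deposited table was also read for related homeobox genes that were not in the group. Msx3, a dorsal spinal cord gene, had 5 peaks and a summed difference of -0.66. Among 18 other paired-like homeobox genes, 17 were in the annotation and 16 had peaks. Their sum was lower in the knockdown in 12 of the 16, where 61.2% of other windows with at least 5 peaks lay below 0. Several of the 16 genes had fewer than 5 peaks, so that share is from an unlike set. The sums of the 16 genes ran from -1.19 at Hesx1, with 1 weak peak, to 0.32 at Phox2a. Of their 85 peaks, 14 (16.5%) were lower and 3 (3.53%) higher by 2-fold, against 20.6% and 20.4% of all listed peaks, with a median difference of -0.18. All 13 other NK-like homeobox genes had peaks, and 9 of them had a lower sum, again beside 61.2% of other windows with at least 5 peaks. Some of the 13 genes also had fewer than 5 peaks. Of their 69 peaks, 8 (11.6%) were lower and 8 (11.6%) higher by 2-fold, with a median of -0.12. The medians of the paired-like and NK-like lists lay closer to 0 than the -0.30 of the 8 genes. Close family members outside the group, 3 genes with Msx3 among them, had a median of -0.55 over 24 peaks, further from 0. Their sum was lower in 2 of the 3 genes, and 3 peaks (12.5%) were lower and 0 higher by 2-fold. Whether any of these lists differ from the 8 genes could not be tested with group means.

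Sequence motifs were counted in the central 300 bases of each peak at least that wide, on both strands. TAATCC, the core site known for Pitx-type homeodomains, was found in 3 of 59 peaks (5.08%), 1 each at Msx1, Alx1 and Barx1, and in 8.52% of all listed peaks. The Alx1 peak with the TAATCC site is the upstream peak printed above. TAATTA, which many other homeodomains bind, shares its first 4 letters with TAATCC and reads the same on both strands. It was found in 5 peaks (8.47%), 3 of them at Msx2, and in 5.29% of all listed peaks. The 8 peaks that were lower by 2-fold had a median CpG ratio of 0.20, the 3 higher ones 0.21 and the 51 others 0.44, and the weak peaks among all listed peaks were CpG-poor as well.

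The cell type named in the labels could be checked only through the mark itself. Of 11 neuronal genes, Snap25, Camk2a and Neurod6 had no listed peak, and Map2, Tubb3 and Syt1 had 1 weak peak each. The others had more: Rbfox3 and Slc17a7 had 13 each, Gad1 had 10, Gad2 had 8 and Neurod2 had 5. Peaks were found at 2 of 6 astrocyte, 5 of 6 oligodendrocyte lineage, 1 of 5 microglial and 4 of 4 endothelial genes. Summed reads in the control and knockdown were 759 and 755 for the neuronal, 13.1 and 21.4 for the astrocyte, 510 and 573 for the oligodendrocyte lineage, 24.3 and 13.9 for the microglial and 275 and 276 for the endothelial genes. The part of other cell types in the differences at the 8 genes was not tested.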

How the data were processed

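H3K27me3 ChIP-seq libraries were grouped by their titles. Per the study's methods and the labels, the authors aligned single-end reads to mm10 (bowtie2), called broad peaks (MACS2, q value below 0.1) and compared the groups in DiffBind with its DESeq2 option; versions, scaling, duplicate removal and input subtraction are not given in the sources used here. The deposited log2 values are means of normalized reads per library and peak, both overall and by group. The input libraries were not analysed here. The table also holds the authors' own fold changes, p-values and FDR, which were not used. There were 0 other per-sample columns.

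Differences are the knockdown minus the control log2 mean, with no test, because only group means were read. Sums add normalized reads over peaks. Windows were taken from GENCODE M21 on GRCm38, and 23642 peaks lay inside the 21 assembled chromosomes and 26 elsewhere. A peak was named if it was the strongest of its gene, covered the gene start or passed 2-fold. Other peaks named beside these, and the totals without single peaks, were chosen after their values were seen. The members, gene lists and limits were chosen with earlier results of these data known. Bins of the overall mean had edges at 3, 4 and 5. Alternatives changed the flank, gene assignment, limit, filters on strength, width and groups at 0, and centring. Promoters came from RefSeq (GRCm38.p6). Some items withheld for evaluation are not reported here. Scripts were tested on simulated data. Python 3.11.15, numpy 2.4.6, pandas 2.3.3, pysam 0.24.0 and matplotlib 3.10.9 were used.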

Additional observations from a re-analysis of the deposited data

How the results depend on the processing

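No paired analysis was possible because the table gives 1 mean per group, and for the same reason no library could be left out. The 2 alternatives on groups at 0 could not change a value, since no peak of the 8 genes has a group at 0. Under the 9 others, 69 of 88 values stayed in direction and within 0.25 (log2) or 1.5 times (counts), a tolerance as wide as many of the differences. Centring within bins of the overall mean was added after seeing the data. The median difference (-0.30) stayed below 0 but ranged from -0.44 without flanks to -0.11 with assignment to the nearest protein-coding gene start, and the sum over all windows (-0.22) from -0.31 without flanks to -0.13 centred within bins. Peaks lower and higher by 2-fold numbered 4 and 0 without flanks, 21 and 15 with assignment to the nearest protein-coding gene start, and 1 and 0 among the 35 peaks whose overall mean reached 4. The higher peaks numbered 5 with 10 kb on each side and 1 among peaks of at least 500 bp. A limit of 1.5-fold gave 16 and 5, and 4-fold 1 and 1. These settings change how many peaks can be counted. The summed difference of Msx1 moved to -0.47 without flanks, -0.057 with the nearest start and -0.023 centred within bins, that of Barx2 to -0.48 without flanks and -0.036 with the nearest start, that of Alx4 to -0.24 without flanks and -0.10 among peaks whose overall mean reached 4, and that of Pitx3 to -0.25 among peaks whose overall mean reached 4. Barx1 turned to -0.045 without flanks, -0.038 with 10 kb and -0.0059 among peaks of at least 500 bp, and Alx4 to 0.017 among peaks of at least 500 bp and 0.041 centred within bins, both from values near 0. Depth limits the weak peaks most: 27 of the 62 had under 16 normalized reads per library, and the spread between libraries is unknown.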

Other observations

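Genes that work with these homeobox genes elsewhere in the embryo carried H3K27me3 too. Of 11 genes of midbrain dopamine neurons, where Pitx3 acts, 10 had listed peaks and Aldh1a1 had none. Their sum was lower in the knockdown in 8 of the 10, where 61.2% of other windows with at least 5 peaks lay below 0. Several of the 10 genes had fewer than 5 peaks, so that share is from an unlike set. The sums ran from -0.44 at En2, an engrailed homeobox gene, to 0.77 at Ddc, an enzyme of dopamine synthesis with 2 weak peaks. Th, the rate-limiting enzyme of dopamine synthesis, was nearly level at -0.05 over 6 peaks. Of the 68 peaks of this list, 11 (16.2%) were lower and 9 (13.2%) higher by 2-fold, below the 20.6% and 20.4% of all listed peaks.

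All 10 limb and facial mesenchyme genes had listed peaks, and 9 had a lower sum in the knockdown, where 61.2% of other windows with at least 5 peaks did. The values ran from -0.37 at Hand2, a limb and heart regulator, to 0.34 at Twist2. Of their 104 peaks, 13 (12.5%) were lower and 3 (2.88%) higher by 2-fold, also below the shares of all listed peaks, with a median difference of -0.19. Tbx4, the hindlimb gene known as a target of Pitx1, had 11 peaks and a summed difference of -0.16.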
